A study of Mus musculus with 122 samples.

Results

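The 30 genes described here carry out glycolysis or belong to the response to low oxygen. They comprise 16 glycolytic enzymes, 2 carriers of glucose and lactate, 4 regulators and branch enzymes, 4 genes for hypoxia-inducible factor (HIF) subunits and their prolyl hydroxylases, and 4 other HIF targets. They were selected by gene name, but the list was made with earlier results of these data known. All 30 were present among the 22050 genes of each count table. RNA was measured in 99 libraries of 31 groups of mouse alveolar macrophages, or their fetal precursors, that lacked or carried an altered form of the transcription factor C/EBPβ or lacked the receptor subunit Csf2rb. The question each comparison addresses is how the mutation, or the step from fetal to adult life, alters gene expression in these cells.

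Glycolysis converts glucose to pyruvate, and lactate dehydrogenase (Ldha) turns pyruvate into lactate where it does not enter the mitochondria. HIF-1α (Hif1a) and HIF-2α (Epas1) are made continuously and, in oxygenated cells, are marked for destruction by the prolyl hydroxylases Egln1 and Egln3. When oxygen falls the HIF subunits persist and switch on glucose uptake, glycolytic enzymes, Pdk1, which keeps pyruvate out of the mitochondria, and Vegfa, a growth factor for blood vessels. Alveolar macrophages live at high oxygen in the airspace, clear surfactant lipid, and depend on the cytokine CSF2, whose receptor includes Csf2rb. All of this is background and none of it was measured here.

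The adult Cebpb-deficient groups came by lavage from mice homozygous for the C/EBPb tm1Pfj allele on a mixed background and were compared with wild types. The first adult set held CD11b low and CD11b high knockouts and wild types (4 libraries each). Facility 1 females were knockout (2), heterozygous (3) and wild type (2), facility 2 females were knockout (2) and wild type (3), and males were knockout (2) and wild type (2). A further set sequenced beside chromatin assays held knockout (3) and wild type (3). In the LyzM set, Cre from the Lyz2 locus deleted floxed Cebpb in the myeloid lineage (2 libraries), and floxed mice without Cre were controls (2). In the CD11c set, macrophages carried CD11c-Cre and floxed Cebpb (4), and controls carried the same Cre alone (3), so both groups shared the Cre. Lip mice (allele tm1.2Acle) make the short LIP form of C/EBPβ in place of the full-length protein. Lip/Lip macrophages were sorted as CD11b low (4) and CD11b high (4) against Lip +/+ (3), or left unsplit in the chromatin-matched set, with 4 mutant and 4 control libraries.

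E18 fetal premature alveolar macrophages came from digested lung, from Cebpb knockout (4) and wild type (3) fetuses and from Csf2rb -/- (3) and +/+ (4) fetuses of the Csf2rb tm1Cgb strain. E18 Ly6Chi monocytes were Cebpb knockout (4) and wild type (3). In mixed chimeras, irradiated CD45.1/2 mice received 66% marrow of CD11c-Cre Cebpb fl/fl donors and 33% wild-type marrow, and donor macrophages of each origin were sorted from digested lung 5 weeks (4 knockout and 3 wild type) and 10 weeks (3 knockout and 4 wild type) after transfer. The irradiated host can retain cells of its own, and the sort by CD45 allele separates the donors. Each library held a small number of sorted cells counted at the 3′ end of transcripts.

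Library totals ran from 642269 to 17834909 counts, so the level that 3 counts represent ran from 0.168 to 4.67 CPM, the count scaled to a fixed library total. That floor covers counting error only. Levels are given as CPM after trimmed-mean (TMM) scaling within each of the 3 tables, which were scaled separately. Cebpb passed the test as lower in all 11 knockout sets with controls of their own, by 2.95 to 5.34 on the log2 scale, and Csf2rb fell by 1.62 on the log2 scale in Csf2rb -/- cells. Whether the counted 3′ ends lie in the deleted parts was not analysed here. Nothing in the labels says that replicates of a group came from separate mice, so p-values measure the spread between these libraries, which may be technical. The summed level of 10 alveolar macrophage markers was lower in every Cebpb or Csf2rb knockout group than in its control, without overlap of the ranges, for example 2157 to 2994 CPM in CD11b low knockouts and 8351 to 10326 CPM in wild types of the first adult set. It was also lower in Lip mutants, without overlap. CD11b low mutants stood at 10981 to 14688 CPM and CD11b high ones at 3746 to 5267 CPM, against 25315 to 27416 CPM in controls. Unsplit Lip mutants stood at 8550 to 13528 CPM, against 17577 to 25497 CPM in controls. The summed level of 10 genes known to rise during tissue dissociation ran from 5112 to 17790 CPM in groups from digested lung and from 329 to 2811 CPM in groups from lavage. In bulk libraries, fewer cells of a type and less RNA per cell cannot be told apart.

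The windows before the start sites of 4 members are shown as examples. Slc2a1, Ldha and Pfkfb4 have RNA changes that recur below, and their windows hold a core HIF motif. Vegfa, Aldoc and Pdk1 also recur and hold one but are not shown. Pkm, which fell in 3 of 11 sets, is shown for its C/EBP motif. The printed Pkm window holds no HIF core, while another Pkm window does. Each is the 250 bases before a start site on the plus strand, from RefSeq on build GRCm38.p6, with matches on either strand in capitals. The motifs searched were the HIF cores, written ACGTG and also GCGTG, and a C/EBP motif, written TTGCNNAA. The windows lie at chr4:119108495-119108744 (Slc2a1), chr7:46845554-46845803 (Ldha), chr9:108991652-108991901 (Pfkfb4) and chr9:59656326-59656575 (Pkm).
Slc2a1: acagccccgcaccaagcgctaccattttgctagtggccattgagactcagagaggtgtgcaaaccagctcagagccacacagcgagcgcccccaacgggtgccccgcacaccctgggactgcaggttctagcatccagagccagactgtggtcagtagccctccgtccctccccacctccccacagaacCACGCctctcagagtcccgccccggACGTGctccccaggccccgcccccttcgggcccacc
Ldha: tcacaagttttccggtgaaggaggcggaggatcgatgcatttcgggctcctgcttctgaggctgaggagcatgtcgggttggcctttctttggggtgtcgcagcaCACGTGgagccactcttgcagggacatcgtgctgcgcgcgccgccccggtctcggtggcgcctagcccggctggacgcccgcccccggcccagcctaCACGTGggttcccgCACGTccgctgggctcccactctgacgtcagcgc
Pfkfb4: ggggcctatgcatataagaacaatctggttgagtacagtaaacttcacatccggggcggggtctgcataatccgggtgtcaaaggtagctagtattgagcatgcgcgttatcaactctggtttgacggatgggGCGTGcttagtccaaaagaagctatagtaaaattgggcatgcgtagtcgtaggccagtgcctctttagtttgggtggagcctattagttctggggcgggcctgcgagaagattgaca
Pkm: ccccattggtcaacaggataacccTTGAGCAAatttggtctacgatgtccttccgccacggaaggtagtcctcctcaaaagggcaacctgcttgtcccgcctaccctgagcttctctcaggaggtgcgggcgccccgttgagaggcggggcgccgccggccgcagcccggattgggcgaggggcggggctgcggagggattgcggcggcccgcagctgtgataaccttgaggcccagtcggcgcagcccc
Of 28 members with a RefSeq window, 25 held at least 1 of the HIF cores (89.3%), against 63.9% of genes tested in the first adult set and 41.5% of all genes with a window. TTGCNNAA was in 2 members, Pfkm and Pkm (7.14%), against 9.3% of genes tested in the first adult set and 10.8% of all genes with a window. Where a gene has several start sites, a match in any window counted, and ACGTG and its complement share bases in CACGTG, which Ldha holds at 2 places. A match is a description of these letters only.

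Across the knockouts, Slc2a1, Ndrg1, Vegfa and Epas1 were the members that rose most often, and Ldha, Pfkfb4, Aldoc and Pdk1 those that fell most often. Pfkfb3, the other phosphofructokinase-regulating member, passed in none of the 11 sets counted below, and the lactate carrier Slc16a3 fell in 1. Where CD11b low and CD11b high knockouts share wild types, the CD11b low cells stand for the set. Of the 11 Cebpb-deficient sets counted this way, Slc2a1 rose in 9, Ndrg1 in 8, Vegfa in 7 of the 8 where it was tested, and Epas1 in 6 of 10. Ldha and Pfkfb4 each fell in 7 of 11, Aldoc in 6 and Pdk1 in 5. Among 9652 genes tested in at least 8 sets, 1.30% rose in 9 or more and 2.67% in 8 or more. A rise in 7 or more sets was seen for 4.15%, and in 6 or more for 5.61%. Of the same genes, 2.90% fell in 7 or more, 4.37% in 6 or more and 6.43% in 5 or more. No share was taken for counts of 3 sets or fewer. Hk3, Pfkp and Hif1a rose in 3 sets each, of which the Hif1a call in the 10-week chimera was lost with same-numbered libraries paired (adjusted p = 0.0819, edgeR), while Aldoa, Pkm and Egln1 fell in 3 each. Of the 17 mutant comparisons, Pgk1 and Bnip3 were tested in 14 each and Pgam1 in 6, and none of the 3 passed in any. Pgk1, Pgam1 and Gapdh have near-identical copies elsewhere in the genome, so their values are uncertain.

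**Figure D1:**
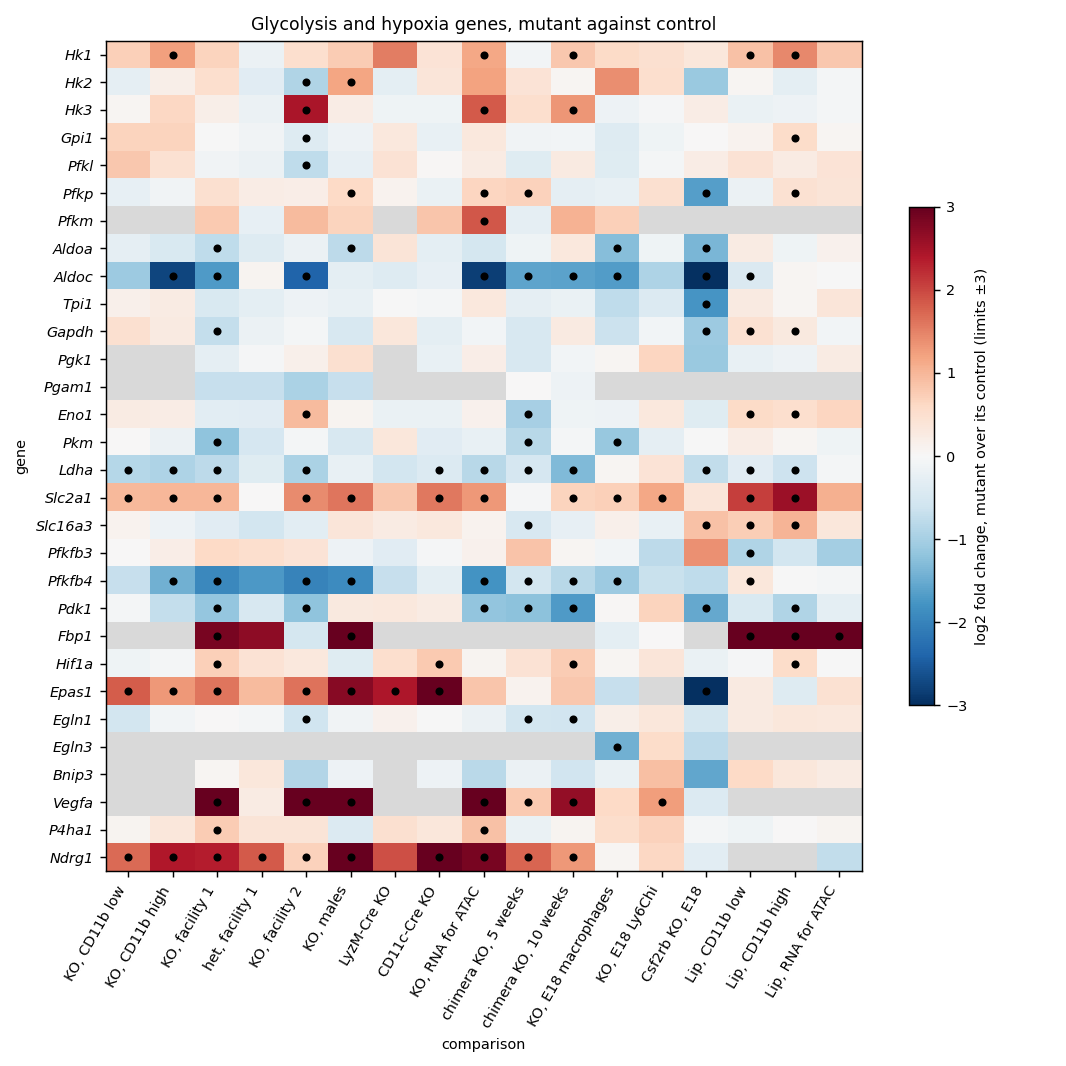
Log2 fold change of each of the 30 members (rows) in the 17 comparisons of a mutant with its control (columns). Colour runs from blue (lower in the mutant) to red (higher), limited at ±3, black points mark genes past the test (edgeR adjusted p under 0.05), and grey marks genes not tested. Slc2a1, Ndrg1, Vegfa and Epas1 form red rows across most Cebpb knockouts, and Aldoc, Ldha and Pfkfb4 form blue ones.

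Slc2a1 encodes GLUT1, the main carrier of glucose into many cells. It measured 16.8, 24.8, 23.9 and 14.6 CPM in CD11b low knockouts, and 9.01, 7.74, 13.0 and 9.13 CPM in wild types of the first adult set. In the chromatin-matched set it stood at 43.7, 24.5 and 46.2 CPM in knockouts, against 15.0, 14.2 and 17.1 CPM in wild types. The groups did not overlap in either set. The log2 fold changes of the 9 sets that passed ran from 0.67 to 1.6. The rise in CD11b low knockouts (log2 fold change 0.98 ± 0.30 SE, adjusted p = 0.0321, edgeR) no longer passed without wild type 1, 2 or 4, or without CD11b low knockout 2 or 3, or under DESeq2. In LyzM-Cre macrophages it was 30.1 and 28.8 CPM in knockouts and 16.4 and 17.2 CPM in controls, which did not pass (adjusted p = 0.265, edgeR). The facility 1 rise was lost when any 1 of its 4 libraries was left out, the E18 macrophage rise without wild type 2 or 3 or knockout 1, and the 10-week chimera rise without knockout 2 or 3 or wild type 1 or 4. The set where its level was not higher was the 5-week chimera, with a log2 fold change of -0.03.

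Ndrg1, a stress and hypoxia responsive gene, measured 62.0, 53.2, 37.0 and 52.4 CPM in CD11b high knockouts, and 2.57, 12.9, 13.0 and 8.12 CPM in wild types. In CD11c-Cre knockouts it was 29.0, 19.7, 22.5 and 26 CPM, against 2.15, 2.36 and 2.2 CPM in controls. No knockout library of either set reached down to its controls (log2 fold changes 2.41 ± 0.31 and 3.43 ± 0.23 SE; adjusted p = 8.41e-06 and 9.88e-07, edgeR). The facility 1 heterozygotes stood at 52.9, 39.2 and 51.0 CPM, against 9.47 and 16.6 CPM in wild types (log2 fold change 1.84 ± 0.30 SE, adjusted p = 0.00819, edgeR). Ndrg1 was the only member that passed in heterozygotes, where 1 of 29 members rose and 0.634% of all genes passed (0.462% higher and 0.172% lower), and it did not pass without wild type 1. Without heterozygote 2, 2 members passed. The facility 1 heterozygotes and knockouts share their wild types.

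Vegfa was at or near 0 in lavage wild types. In the chromatin-matched set it measured 7.70, 11.7 and 6.98 CPM in knockouts, against 0, 0.364 and 0 CPM in wild types (log2 fold change 5.80 ± 0.70 SE, adjusted p = 0.00027, edgeR). Facility 2 knockouts had 6.95 and 2.52 CPM and all 3 wild types had 0, so the level was at least 35.5-fold higher, taking 3 counts over the wild-type group as the floor. In CD11b high knockouts of the first adult set Vegfa was 14.8, 6.65, 13.2 and 10.8 CPM, against 0 CPM in all 4 wild types, but it did not reach the minimum count and was not tested. In the 4 lavage sets where it was tested it passed that minimum through the knockouts, where it was high, so the 7 of 8 sets carry that choice. The male rise of Vegfa was lost when any 1 of the 4 male libraries was left out, and under DESeq2.

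Epas1 encodes HIF-2α. It measured 122, 77.7, 71.1 and 75.3 CPM in CD11b low knockouts and 42.5, 19.3, 20.8 and 17.3 CPM in wild types, where wild type 1 stood apart. In CD11c-Cre knockouts it was 148, 191, 125 and 208 CPM, against 17, 21.8 and 16.4 CPM in controls (log2 fold change 3.20 ± 0.21 SE, adjusted p = 7.46e-07, edgeR). It was the only member past the threshold in LyzM-Cre knockouts, at 109 and 112 CPM, against 19.3 and 22.5 CPM in controls (log2 fold change 2.42 ± 0.28 SE, adjusted p = 0.00175, edgeR). Hif1a, which encodes HIF-1α, rose by 0.71 to 0.78 on the log2 scale in 3 sets, which were facility 1, CD11c-Cre and the 10-week chimera, the last not with same-numbered libraries paired (adjusted p = 0.0819, edgeR). The facility 1 rise of Hif1a was lost when any 1 of its 4 libraries was left out.

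**Figure D2:**
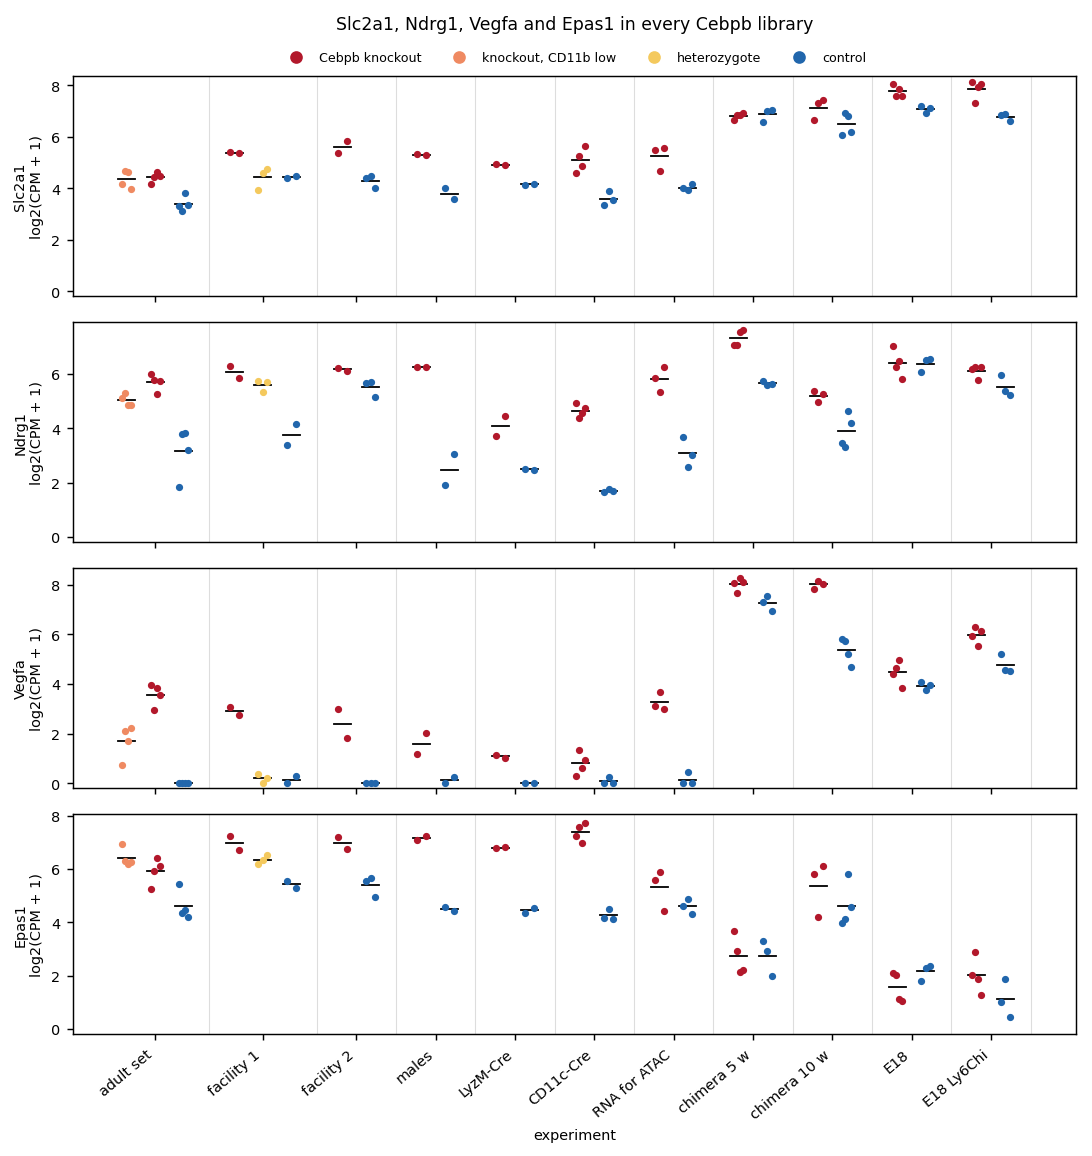
Level of Slc2a1, Ndrg1, Vegfa and Epas1 as log2(CPM + 1) in every Cebpb library, by experiment, with a line at each group's mean. Vegfa lies at or near 0 in lavage controls, with a higher mean in each knockout group, and its controls lie higher in the digested-lung sets (chimeras, E18).

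The genes that fell in most sets were Ldha and Pfkfb4. Ldha stood at 288, 223, 268 and 295 CPM in CD11b low knockouts, and 574, 512, 406 and 445 CPM in wild types (log2 fold change -0.86 ± 0.22 SE, adjusted p = 0.0114, edgeR). The groups did not overlap, and the call held whichever library was left out. In the 10-week chimera Ldha was 405, 227 and 216 CPM in knockout-derived macrophages and 687, 818, 781 and 618 CPM in wild-type-derived ones (log2 fold change -1.33 ± 0.18 SE, adjusted p = 2.61e-05, edgeR). In the 5-week chimera it narrowly passed (log2 fold change -0.50 ± 0.18 SE, adjusted p = 0.0498, edgeR), and it did not pass when any 1 of the 7 libraries was left out. In CD11c-Cre knockouts the fall of Ldha was lost without control 1, 2 or 3 or knockout 2, and in facility 1 without wild type 2 or knockout 2.

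Pfkfb4 makes and degrades fructose 2,6-bisphosphate, the activator of phosphofructokinase. Its level in facility 2 females was 88.3 and 78.8 CPM in knockouts and 355, 331 and 354 CPM in wild types (log2 fold change -2.01 ± 0.50 SE, adjusted p = 0.00516, edgeR). In the chromatin-matched set it was 56.0, 125 and 72.2 CPM in knockouts, against 217, 316 and 352 CPM in wild types. Knockouts lay below wild types in both sets. Its log2 fold change was negative in all 11 sets, from -2.01 to -0.30. The fall of Pfkfb4 in males was lost when any 1 of the 4 libraries was left out, in facility 1 without wild type 1 or 2 or knockout 2, in facility 2 without knockout 2, and in the 5-week chimera without knockout 3 or 4 or wild type 3.

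Aldoc, the aldolase isozyme typical of brain, measured 7.49, 20.0 and 6.98 CPM in knockouts of the chromatin-matched set, and 86.1, 76.9 and 77.3 CPM in wild types (log2 fold change -2.83 ± 0.37 SE, adjusted p = 0.00058, edgeR). Its log2 fold change was negative in all 11 sets, and the 6 sets that passed ran from -2.83 to -1.58. Another isozyme, Aldoa, fell in 3 sets, with log2 fold changes from -1.28 to -0.76. Pdk1 was 5.72, 11.9 and 4.03 CPM in knockout-derived macrophages of the 10-week chimera, and 22.7, 26.1, 23.2 and 25.5 CPM in wild-type-derived ones (log2 fold change -1.69 ± 0.27 SE, adjusted p = 9.91e-05, edgeR). Its direction was not shared by all sets, with 5 positive and 6 negative fold changes.

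**Figure D3:**
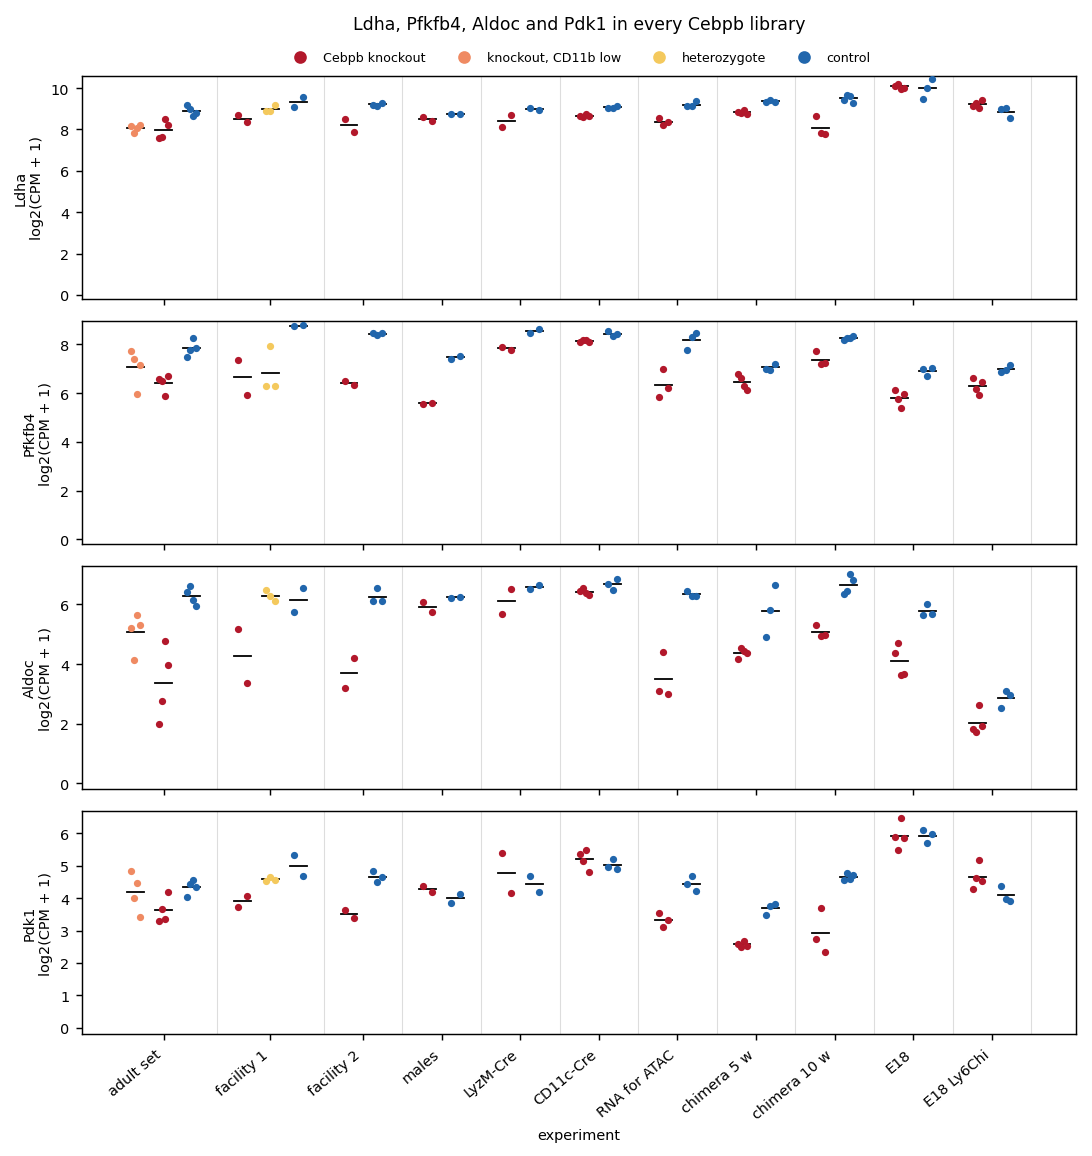
Level of Ldha, Pfkfb4, Aldoc and Pdk1 as log2(CPM + 1) in every Cebpb library, by experiment, with a line at each group's mean. Pfkfb4 and Aldoc have knockout means below the control mean in every experiment, while Pdk1 lies above it in some, such as the males and the E18 Ly6Chi monocytes.

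Members called in few sets moved in both directions. Pfkp, the platelet phosphofructokinase, rose in 3 sets, and in males it was 159 and 147 CPM in knockouts and 99.5 and 106 CPM in wild types. The prolyl hydroxylase Egln1 fell in 3, and in facility 2 females it was 54.3 and 40.6 CPM in knockouts and 66.4, 75.4 and 76.9 CPM in wild types. P4ha1, a collagen prolyl hydroxylase subunit, rose in 2, and in facility 1 females it was 94.8 and 83.7 CPM in knockouts and 49.9 and 57.2 CPM in wild types. None of these groups overlapped. The hexokinase Hk2 was called in opposite directions in facility 2 females and in males. It fell to 15.5 and 14.1 CPM in facility 2 knockouts, against 25.2, 22.5 and 37.8 CPM in wild types, and rose to 23.5 and 26.6 CPM in male knockouts, against 15.7 and 7.17 CPM in wild types. Most member calls in males were lost when any 1 male library was left out, as given below. Eno1 rose in facility 2 females and fell in the 5-week chimera. Gpi1, the isomerase of glucose 6-phosphate, and Pfkl, the liver phosphofructokinase, each fell in facility 2 females alone among the 11 sets.

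In the first adult set, 3 of 23 members tested rose and 1 fell in CD11b low knockouts, while of all genes 8.29% rose and 6.83% fell (15.1% in all). In CD11b high knockouts 4 rose and 3 fell, against 12.2% and 11.8% of all genes (24.0% in all). The 2 knockout groups share their wild types. Hexokinase Hk1, which traps glucose in the cell, was 42.0, 33.3, 30.4 and 30.3 CPM in CD11b high knockouts and 14.2, 5.16, 15.6 and 21.3 CPM in wild types (log2 fold change 1.22 ± 0.31 SE, adjusted p = 0.00636, edgeR). Compared directly, CD11b high and CD11b low knockouts differed in Aldoc alone (1 of 23, against 1.19% of all genes higher and 2.61% lower, 3.80% in all). It stood at 2.95, 5.82, 26.5 and 14.7 CPM in CD11b high cells and 36.4, 16.5, 49.4 and 38.9 CPM in CD11b low cells, which overlapped (log2 fold change -1.66 ± 0.43 SE, adjusted p = 0.0338, edgeR). Without CD11b low 1, or CD11b high 1, 2 or 4, no member passed, and without CD11b low 2 or 4, 2 did. The sum of 6 neutrophil markers was 107 to 254 CPM in CD11b low knockouts and 42.5 to 69.5 CPM in wild types, with Mmp9 at 0 in both. The mitochondrial share of counts was 1.17 to 1.80% in CD11b low knockouts and 0.497 to 1.15% in wild types. The part of these measures in the results was not tested.

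In facility 1 females, 7 of 29 members rose and 7 fell, against 12.5% and 10.8% of all genes (23.2% in all). Aldoa, Aldoc, Gapdh, Pkm and Ldha were the 5 enzymes that fell. Pkm, which makes pyruvate, was 302 and 201 CPM in knockouts, against 401 and 769.6 CPM in wild types (log2 fold change -1.20 ± 0.31 SE, adjusted p = 0.00913, edgeR). Gapdh, the dehydrogenase that makes NADH, was 377 and 311 CPM in knockouts and 565 and 589 CPM in wild types. The count fell to 8 members without wild type 1, and to 5 without wild type 2 or without knockout 2. The sum of 5 monocyte markers was 47.7 to 55.2 CPM in facility 1 knockouts and 3.00 to 4.74 CPM in wild types, and the mitochondrial share was 0.224 to 0.484% in knockouts and 0.0634 to 0.144% in wild types, whose part was not tested.

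In facility 2 females, 6 of 29 members rose and 8 fell, against 24.9% and 22.7% of all genes (47.6% in all). Hk3, the hexokinase of myeloid cells, measured 197 and 186 CPM in knockouts and 33.7, 37.9 and 36.9 CPM in wild types (log2 fold change 2.45 ± 0.19 SE, adjusted p = 1.33e-08, edgeR). Hk3 also rose in the chromatin-matched set and the 10-week chimera, by 1.84 and 1.32 on the log2 scale. The mitochondrial share of counts in facility 2 was 0.886 to 1.22% in knockouts and 0.0390 to 0.0580% in wild types, and the monocyte marker sum was 21.3 to 143 CPM in knockouts and 1.34 to 2.56 CPM in wild types. The dissociation gene sum was 994 to 1520 CPM in knockouts and 510 to 789 CPM in wild types. The 2 knockout libraries differed in depth, with totals of 2345778 and 12687928 counts. The part of these measures in the results was not tested. Without knockout 2, 9 members passed. The effect of the knockout differed between facilities for 3 of 29 members, 2 more positive and 1 more negative in facility 2, against 3.44% and 4.17% of all genes (7.61% in all), and Hk3 was the clearest (difference of log2 fold changes 2.26 ± 0.28 SE, adjusted p = 0.000361, edgeR). Without facility 1 knockout 1, 1 member differed, and without facility 2 knockout 1, 6 did.

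In males, 7 of 29 members rose and 2 fell, against 7.12% and 3.76% of all genes (10.9% in all). Ndrg1 was 74.9 and 74.3 CPM in knockouts, against 2.71 and 7.35 CPM in wild types (log2 fold change 3.82 ± 0.35 SE, adjusted p = 7.14e-07, edgeR). Epas1 was 134 and 149.7 CPM in knockouts and 22.8 and 20.6 CPM in wild types. Leaving out any 1 of the 4 male libraries left 3 or 4 members, all of them higher, and the calls of Pfkp and Aldoa were lost in each of these 4 fits. The count was 4 without wild type 1, 3 without wild type 2, 3 without knockout 1 and 4 without knockout 2. The dissociation gene sum was 1108 to 1142 CPM in male knockouts and 1982 to 2811 CPM in wild types. The neutrophil marker sum was 157 to 215 CPM in knockouts and 56.4 to 62.1 CPM in wild types. Of its genes, S100a9, Retnlg and Mmp9 were at 0 in both male groups. The part of these sums was not tested. Set against both female sets averaged, the knockout effect in males was more positive for 4 of 29 members and more negative for 2, against 6.16% and 4.43% of all genes (10.6% in all), with Ndrg1 more affected in males (difference 2.30 ± 0.40 SE, adjusted p = 0.00265, edgeR). Facility 2 wild types already stood at 49.9, 50.9 and 34.8 CPM of Ndrg1. Without male wild type 1, male knockout 1 or male knockout 2, the members that differed numbered 3, 3 and 2.

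With deletion by LyzM-Cre, 1 of 23 members rose, against 2.96% of all genes higher and 1.72% lower (4.68% in all). It was Epas1, and 8 members passed without knockout 1 and 13 without knockout 2. With deletion by CD11c-Cre, 4 of 26 rose and 1 fell, against 10.3% and 6.48% of all genes (16.8% in all). Those that rose were Slc2a1, Ndrg1, Epas1 and Hif1a, and Ldha fell. Without knockout 4, 11 members passed, and without control 2, 3 did. The neutrophil marker sum was 165 to 261 CPM in LyzM-Cre knockouts and 68.9 to 77.4 CPM in controls. Of its genes, S100a9, Retnlg and Mmp9 were at 0 in both LyzM groups. In CD11c-Cre knockouts the sum was 328 to 396 CPM, against 50.2 to 72.4 CPM in controls. The sum of 7 macrophage markers, Lyz2 among them, was 4657 to 5590 CPM in LyzM-Cre knockouts and 36854 to 37451 CPM in controls. The mitochondrial share was 1.37 to 1.62% in LyzM-Cre knockouts and 0.813 to 0.973% in controls, and 1.50 to 1.67% in CD11c-Cre knockouts and 1.16 to 1.45% in controls. The part of these measures in the results was not tested. In the chromatin-matched set, 8 of 27 rose and 4 fell, against 14.6% and 12.6% of all genes (27.2% in all). Pfkm, the muscle phosphofructokinase, was 4.58, 5.71 and 2.84 CPM in its knockouts and 0.909, 1.28 and 1.30 CPM in wild types (log2 fold change 1.86 ± 0.45 SE, adjusted p = 0.0126, edgeR). It did not pass without wild type 1 or 2, and it can have passed the minimum count through the knockouts, where it was higher. There the neutrophil marker sum was 210.3 to 488 CPM in knockouts and 47.0 to 58.6 CPM in wild types, the sum of 6 erythroid markers was 707 to 1856 CPM in knockouts and 193 to 205 CPM in wild types, and the mitochondrial share was 1.77 to 2.00% in knockouts and 1.48 to 1.56% in wild types. Their part was not tested.

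In the mixed chimeras both genotypes developed in the same kind of recipient. At 5 weeks, 3 of 28 members rose and 8 fell in knockout-derived macrophages, against 12.1% and 10.5% of all genes (22.5% in all), and without wild type 3, 7 passed. Eno1, the enolase, was 99.5, 78.0, 96.7 and 78.5 CPM in knockout-derived cells, against 168, 200.0 and 171 CPM in wild-type-derived cells (log2 fold change -1.0 ± 0.14 SE, adjusted p = 0.000117, edgeR). Pkm was 512, 439, 569 and 663 CPM in knockout-derived cells and 885, 1106 and 983 CPM in wild-type-derived cells. At 10 weeks, 6 of 28 rose and 5 fell, against 24.5% and 21.1% of all genes (45.5% in all), and without knockout 1, 18 passed. Vegfa then measured 229, 284 and 261 CPM in knockout-derived cells and 55.9, 51.4, 35.8 and 24.4 CPM in wild-type-derived cells (log2 fold change 2.64 ± 0.23 SE, adjusted p = 3.84e-07, edgeR). Hif1a, at 29.8, 18.8 and 28.1 CPM in knockout-derived cells and 14.3, 16.3, 19.5 and 10.9 CPM in wild-type-derived cells, passed without the pairing of same-numbered libraries and not with it (adjusted p = 0.0069 and 0.0819, edgeR).

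The summed level of 5 dendritic cell markers moved with these groups. It was 2234 to 3987 CPM in knockout-derived and 512 to 678 CPM in wild-type-derived cells at 5 weeks, and 328 to 1432 CPM in knockout-derived and 35.5 to 127 CPM in wild-type-derived cells at 10 weeks. None of the 5 was at 0 in all libraries of a genotype. At 10 weeks the mitochondrial share of counts was 0.421 to 0.898% in knockout-derived and 0.147 to 0.185% in wild-type-derived cells, and the dissociation gene sum was 8134 to 8422 CPM in knockout-derived and 5112 to 6030 CPM in wild-type-derived cells. The part of these measures in the results was not tested. The knockout effect differed between 10 and 5 weeks for 7 of 28 members, against 13.5% of all genes. Hk1, Gapdh, Eno1, Pkm and Vegfa had the more positive effect at 10 weeks, against 7.57% of all genes, and Pfkp and Ldha the more negative, against 5.97%. Leaving out any one of 7 libraries (5-week knockout 1, 2 or 3, 5-week wild type 2 or 3, 10-week wild type 2 or 3) left 4 members, leaving out 10-week knockout 1 left 12, and blocking on the replicate number left 4.

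In E18 premature macrophages, 1 of 29 members rose and 5 fell in Cebpb knockouts, against 12.0% and 9.55% of all genes (21.5% in all). Aldoa was 876, 750.1, 818 and 699 CPM in knockouts and 1878, 2192 and 1648 CPM in wild types (log2 fold change -1.28 ± 0.22 SE, adjusted p = 0.000851, edgeR). Slc2a1, the member that rose, was 266, 193, 229 and 194 CPM in knockouts and 147, 119.8 and 139 CPM in wild types. Pkm, Aldoc, Pfkfb4 and the prolyl hydroxylase Egln3 were the other members that fell, and Egln3 did so only narrowly, being lost in 6 of the 7 fits that left out a library. In these groups the dissociation gene sum was 14562 to 16637 CPM in knockouts and 6548 to 7855 CPM in wild types, and the dendritic marker sum was 365 to 867 CPM in knockouts and 15.9 to 20.2 CPM in wild types, with Xcr1 at 0 in both. The macrophage marker sum was 2550 to 3408 CPM in knockouts and 11178 to 12365 CPM in wild types. The mitochondrial share was 0.205 to 0.610% in knockouts and 0.734 to 1.44% in wild types. The part of these measures in the result was not tested. In E18 Ly6Chi monocytes 2 of 27 members rose, against 1.99% of all genes higher and 1.64% lower (3.62% in all). Slc2a1 was 278, 159.6, 244 and 268 CPM in knockouts, against 114, 117 and 97.0 CPM in wild types (log2 fold change 1.15 ± 0.19 SE, adjusted p = 0.00187, edgeR). Vegfa was the other, at 59.2, 77.8, 44.7 and 70.1 CPM in knockouts and 36.3, 22.7 and 22.0 CPM in wild types, and it did not pass without wild type 2. The neutrophil marker sum in these monocytes was 290.4 to 367 CPM in knockouts and 843 to 1516 CPM in wild types. The dissociation gene sum was 6862 to 8152 CPM in knockouts and 9227 to 12254 CPM in wild types. The macrophage marker sum was 8206 to 10290.5 CPM in knockouts and 22617 to 29310 CPM in wild types. The part of these sums was not tested.

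Most members that changed without the CSF2 receptor subunit fell. In Csf2rb -/- E18 macrophages, 8 of 27 members fell and 1 rose, against 22.5% of all genes called either way and 11.4% called lower. Aldoc had no count in any of the 3 knockout libraries and 54.2, 67.7, 55.9 and 80.9 CPM in wild types, so it was at least 140.2-fold lower, taking 3 counts over the knockout group as the floor. Tpi1, which interconverts the products of aldolase, was 126, 156 and 127 CPM in knockouts, against 376, 519, 458 and 633 CPM in wild types (log2 fold change -1.77 ± 0.22 SE, adjusted p = 0.000516, edgeR). Gapdh was 675, 620.0 and 579 CPM in knockouts and 1606, 1432, 1130 and 1542 CPM in wild types. The member that rose was Slc16a3, the MCT4 lactate exporter, at 219, 178 and 148 CPM in knockouts and 88.5, 129.6, 86.9 and 114 CPM in wild types (log2 fold change 0.89 ± 0.24 SE, adjusted p = 0.0229, edgeR). The Slc16a3 rise did not pass without wild type 1, 3 or 4 or knockout 1. Without wild type 1 or wild type 3, 5 members passed, all lower. The monocyte marker sum was 2639 to 3298 CPM in Csf2rb -/- and 498 to 627 CPM in wild types, and the dendritic marker sum was 99.7 to 169.8 CPM in Csf2rb -/- and 1.02 to 3.41 CPM in wild types, with Xcr1 at 0 in both. The erythroid sum was 7377 to 10385 CPM in Csf2rb -/- and 2187 to 4044 CPM in wild types, and the dissociation gene sum was 10673 to 17790 CPM in Csf2rb -/- and 6419 to 7296 CPM in wild types. The part of these measures was not tested.

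In Lip mutants Slc2a1, Slc16a3, Hk1, Gapdh, Eno1 and Fbp1 rose in both CD11b classes. In CD11b low Lip macrophages, 7 of 25 members rose and 3 fell, against 25.8% of all genes called either way. In CD11b high cells 9 rose and 2 fell, against 20.8% and 18.5% (39.3% in all). Both share the 3 Lip +/+ libraries. Fbp1, the gluconeogenic fructose bisphosphatase, was 128, 70.7, 81.4 and 94.8 CPM in CD11b low and 119, 122, 66.6 and 101 CPM in CD11b high mutants, against 0, 1.12 and 0 CPM in controls. The log2 fold changes were 7.49 and 7.63 (both SE 0.58; adjusted p = 3.19e-07 and 1.29e-07, edgeR). Fbp1 passed the minimum count there through the mutants, and the size of both fold changes rests on controls at or near 0. In the unsplit set Fbp1 was the only member called (1 of 26, against 3.10% of all genes higher and 1.84% lower, 4.94% in all), at 142, 171, 93.8 and 95.3 CPM in mutants and 6.17, 5.15, 10.9 and 4.34 CPM in controls (log2 fold change 4.12 ± 0.33 SE, adjusted p = 5.48e-07, edgeR). Without unsplit mutant 2 or mutant 4, 2 members were called there. In Cebpb knockouts Fbp1 passed in facility 1 and in males, at levels near the floor in controls. It was 3.95 and 3.42 CPM in facility 1 knockouts and 0.279 and 0.692 CPM in wild types. In males it was 4.73 and 2.57 CPM in knockouts and 0 and 0.358 CPM in wild types. In both sets Fbp1 can have passed the minimum count through the knockouts, where it was higher. The facility 1 call was lost when any 1 of its 4 libraries was left out, and the male call without wild type 1 or 2 or knockout 1.

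Slc2a1 was 31.3, 26.2, 30.3 and 20.2 CPM in CD11b high Lip mutants and 6.01, 4.49 and 3.76 CPM in controls (log2 fold change 2.56 ± 0.32 SE, adjusted p = 3.66e-09, edgeR). Hk1 was 33.8, 39.3, 27.4 and 34.2 CPM in CD11b high mutants, against 13.0, 11.8 and 12.4 CPM in controls. Ldha fell in both CD11b classes, but in CD11b low mutants not without control 1 or 2 or mutant 1. Pfkfb4 was 322, 362, 398 and 370.1 CPM in CD11b low mutants and 299, 288 and 275 CPM in controls, a log2 fold change of 0.33 ± 0.11 SE (adjusted p = 0.0157, edgeR) that did not pass without control 2, control 3 or mutant 3. Compared directly, CD11b high and CD11b low Lip cells differed in 9 of 25 members, against 19.5% of all genes. Hk1, Gpi1, Pfkp, Aldoc and Hif1a were higher in CD11b high cells, against 10.1% of all genes, and Aldoa, Ldha, Pfkfb4 and Epas1 were lower, against 9.48%. In CD11b low Lip mutants the dissociation gene sum was 329 to 462 CPM and the neutrophil marker sum 42.8 to 88.2 CPM. Among CD11b high mutants these sums were 399 to 627 CPM and 26.4 to 31.8 CPM, and in controls they were 835 to 1219 CPM and 109.7 to 142 CPM. Their part was not tested.

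**Figure D4:**
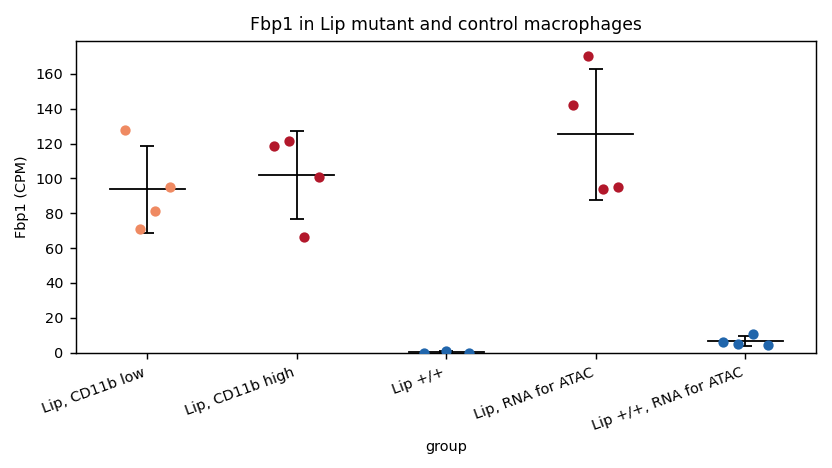
Fbp1 level in CPM in each Lip mutant and control library, with the group mean and SD. The 12 mutant libraries sit between 66.6 and 171 CPM, all above the controls, which reach at most 10.9 CPM.

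Adult and E18 wild types differed in most members. In adult lavage macrophages 4 of 27 members were higher and 17 lower than in E18 macrophages, against 20.7% and 21.4% of all genes (42.1% in all). The median log2 fold change was -0.85 over the members and 0.01 over all genes. Slc2a1 was 9.01, 7.74, 13.0 and 9.13 CPM in adult cells, against 147, 119.8 and 139 CPM in E18 cells (log2 fold change -3.64 ± 0.24 SE, adjusted p = 2.25e-08, edgeR). Tpi1 was 66.9, 52.9, 74.7 and 77.1 CPM in adult cells and 412, 619 and 505 CPM in E18 cells. Vegfa had no count in the 4 adult libraries and 16.0, 12.4 and 14.6 CPM at E18, at least 19.5-fold lower in adults, with 3 counts over the adult group as the floor. Egln3 was 0, 2.58, 0 and 1.01 CPM in adult cells and 16.7, 15.7 and 26.6 CPM at E18.

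All 4 other HIF targets (Bnip3, Vegfa, P4ha1, Ndrg1) and both carriers were lower in adult cells. Epas1 ran the other way, at 42.5, 19.3, 20.8 and 17.3 CPM in adult cells and 2.52, 3.93 and 4.17 CPM at E18 (log2 fold change 2.89 ± 0.39 SE, adjusted p = 2.94e-05, edgeR). With the 7 adult wild types of the facility and sex sets in place of the first adult set, 22 members were called, P4ha1 turned to 0.21 on the log2 scale, and Ndrg1, at -1.67, and Aldoa, at -0.49, did not pass. With the E18 wild types of the Csf2rb set, Pfkl, Pfkp, Aldoc, Gapdh, Pgk1 and Pfkfb4 did not pass, and the log2 fold change of Pfkfb4 was 0.29, against 1.08 with the E18 wild types of the Cebpb set. The adult cells came by lavage and the fetal ones from digested lung, and the dissociation gene sum was 630 to 986 CPM in adults and 6548 to 7855 CPM at E18, so age and isolation cannot be told apart. The monocyte marker sum was 1.29 to 25.4 CPM in adults and 707 to 1407 CPM at E18, and the erythroid sum was 3.86 to 149 CPM in adults and 1509 to 8073 CPM at E18, whose part was not tested. Over all wild-type and control libraries, Vegfa was 12.4 to 184 CPM in the 17 libraries from digested lung, adult chimeras included, and 0 to 1.54 CPM in the 26 from lavage. Slc2a1 was 66.5 to 147 CPM in those from digested lung and 3.76 to 21.4 CPM in those from lavage, so these ranges did not overlap, across 3 tables scaled separately.

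**Figure D5:**
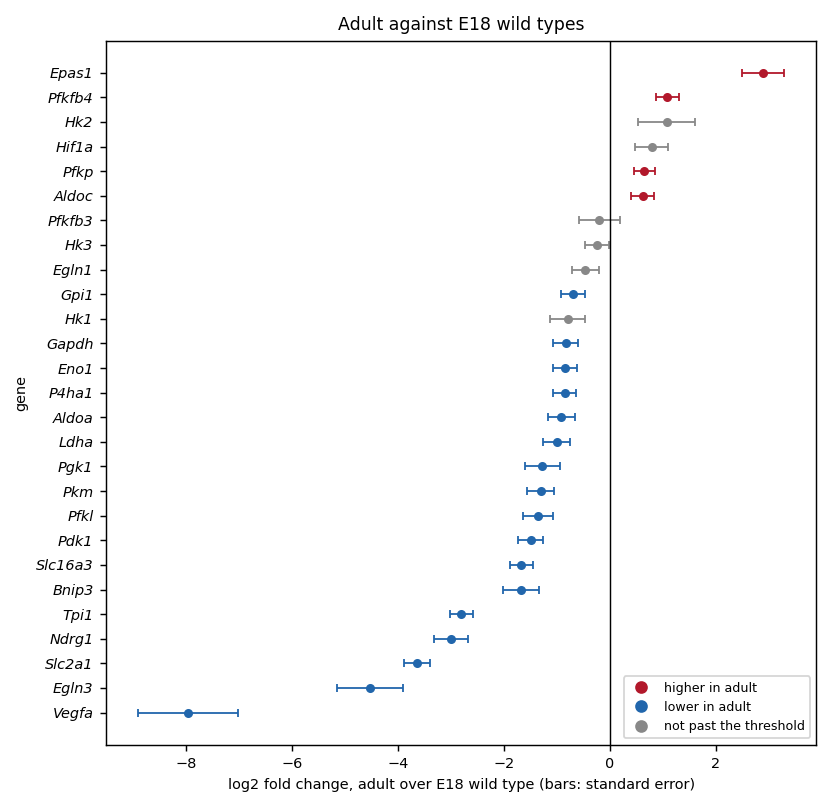
Log2 fold change of adult over E18 wild types for the 27 members tested, with standard errors; blue is lower in adults, red higher, and grey not past the test. Vegfa, Egln3, Slc2a1 and Ndrg1 are the lowest and Epas1 is the highest. The Vegfa value rests on adult libraries with no count and is no bound.

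Genes outside the membership, from lists of the same pathways, were called in both directions. Bhlhe40, a HIF-induced repressor, rose in 10 of the 11 Cebpb sets, by 0.71 to 2.16 on the log2 scale, and Angptl4, a lipase inhibitor induced by hypoxia and fatty acids, fell in 10, while 0.487% of genes rose and 0.414% fell in 10 or more. In E18 macrophages Angptl4 was 3.53, 5.00, 0.796 and 3.00 CPM in knockouts and 86.4, 122 and 150.0 CPM in wild types (log2 fold change -5.25 ± 0.35 SE, adjusted p = 2.34e-07, edgeR). Neuronal enolase Eno2 rose in 6 of the 7 sets where it was tested, and the carriers Slc2a3 and Slc2a6 in 7 of 8 and 5 of 11. Eno2 and Slc2a3 can have passed the minimum count through the knockouts, as Vegfa did, so their counts over the sets tested carry that choice. Of 26 further hypoxia genes, Bhlhe40 and Angptl4 included, 1 rose and 4 fell among the 18 tested in the chromatin-matched set, where 14.6% of all genes rose and 12.6% fell. In facility 2 females 4 rose and 4 fell of 18, in the 10-week chimera 4 and 4 of 22, in E18 macrophages 4 and 3 of 22, and in males 1 and 0 of 18, beside the shares of all genes given above for those sets.

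The pentose phosphate pathway, which branches from glycolysis to make NADPH, had more calls lower than higher. Of its 7 genes, all tested in every set, Taldo1 fell in 8 of 11 sets and Tkt in 7, against 1.66% of genes that fell in 8 or more and 2.90% in 7 or more, while G6pdx, Pgd and Rpia fell in 5 each, Pgls rose in 3 and fell in 1, and Rpe rose in 1 and fell in 1. Taldo1 was 587 and 531 CPM in facility 2 knockouts, against 1934, 1763 and 1848 CPM in wild types (log2 fold change -1.68 ± 0.20 SE, adjusted p = 2.15e-06, edgeR). In CD11b high Lip mutants G6pdx, the entry enzyme, was 93.9, 82.4, 112 and 123 CPM, against 213, 212 and 182 CPM in controls. Of 14 genes for pyruvate entry into mitochondria, 1 rose and 5 fell in the 10-week chimera, where 24.5% of all genes rose and 21.1% fell. In each of the other 10 sets at most 2 rose and at most 3 fell, and Pdk4 rose in 3 of the 8 sets where it was tested. Among 7 other HIF regulators, Vhl, which directs HIF to destruction, rose in 4 of the 11 sets and Rora fell in 4 and rose in 1, the 10-week chimera, against 11.4% of genes that rose and 9.78% that fell in 4 or more.

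C/EBPβ binding and open chromatin were read from the authors' peak lists, called per sample. A region present in both C/EBPβ ChIP lists from wild-type alveolar macrophages lay within 10 kb of 23 of 30 members (76.7%), against 63.4% of the genes tested in the first adult set, and gene length, which differs between genes, was not matched. Hk2, Pgam1, Pkm, Slc16a3 and Bnip3 had one that overlapped a start-site window in part or in full. The share of all genes with such an overlap was not counted. The Pkm region at chr9:59655927-59656655 covers the Pkm window printed above. The Slc2a1 region, chr4:119125205-119126473, lies inside the gene 17094 bases from the start and has a −log10 q of 74.7 and 84.1 in the 2 lists. Whether it is in an exon or an intron was not analysed here.

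Of the 50 regions near members, 35 were open in all 5 ATAC lists of cultured lavage macrophages (70.0%), against 65.0% of all 19114 regions. All 5 cultures carried Mx-Cre, were grown with CSF2 and were treated with IFNα. Of these, 3 also carried floxed Cebpb and are labelled knockout, and 2 are labelled Mx-Cre alone. Of the 50, 5 (10.0%) were open in both Mx-Cre controls and in no knockout culture, against 5.02% of all regions. None of the 50 showed the reverse, which 36 of all 19114 regions did. The strongest of the 5 open in controls only was at Pfkfb4, chr9:108995876-108996930, inside the gene 4501 bases from the start behind the printed window, with a −log10 q of 66.1 and 48.3 in the 2 lists. The others were in Hk1, Pfkp, Pfkfb3 and Egln1. The printed Pfkfb4 window itself was open in all 5 cultures. An absent peak in a list is a call below the authors' threshold and was not tested as a difference.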

How the data were processed

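Per the labels, RNA of small numbers of sorted cells was made into 3′ barcoded (MARS-seq) libraries. The authors deposited 3 tables of raw counts per gene, which the submitters' processing notes tie to STAR 2.6.1a, featureCounts 1.6.3 and GRCm38, and peak lists with −log10 q values, for which the notes name BWA 0.7.17 and MACS2 2.2.7.1. No source used here says how molecule barcodes were handled. From the deposited counts, edgeR 4.0.16 (R 4.3.3) fitted the quasi-likelihood test on all genes of each experiment, with TMM scaling, filterByExpr at a minimum count of 10 and Benjamini-Hochberg adjustment over all genes, and a threshold of 0.05 on the adjusted p. SE is the log2 fold change over the root of F. Levels per library are given for up to 3 called members with the largest change in a comparison and for members called the same way in at least 3 sets; other members named were chosen after their values were seen. The main fits used group means only, without pairing. In the 10-week chimera (correlations 0.151 to 0.219) and in Lip CD11b high against low (0.111 to 0.280), every pair of same-numbered libraries deviated together. Pairing them there, by the replicate block, was an alternative fit. Alternatives were DESeq2 1.42.0, its size factors, no count filter, the replicate block, other groups in the fit, and leaving out each library. C/EBPβ regions are overlaps of peaks in both ChIP lists. The members and lists were chosen with earlier results of these data known. The procedure was tested on simulated counts.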

Additional observations from a re-analysis of the deposited data

Results flagged for a closer look

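Each member was examined in the groups of 4 to 10 libraries of the comparisons that called it, 110 pairs of a member and a group, and 8 held a library far from the rest of its group, and chance flags about 1 in 20 groups. Epas1 stood at 122 CPM in CD11b low knockout 1 and at 42.5 CPM in wild type 1 of the same set, each above the others of its group. Epas1 stood at 9.36 CPM in CD11b high Lip mutant 2, below its group. Eno1 was 257 CPM in CD11b low Lip mutant 2, Pfkp was 67.1 CPM in CD11b low Lip mutant 3 and Aldoa was 835 CPM in CD11b high Lip mutant 1, all below their groups. Pfkfb4 was 336 CPM in CD11b high Lip mutant 3 and Ldha was 1487 CPM in E18 Csf2rb wild type 2, both above their groups.

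The knockout effect differed between experiments for several members by a direct test (differences of log2 fold changes, edgeR adjusted p under 0.05). Between facility 2 and facility 1 females the differences were 2.26 for Hk3, 1.27 for Eno1 and -1.68 for Ndrg1. Between males and the mean of the females they were 1.39 for Hk2, -1.09 for Hk3, 1.48 for Pdk1, 1.11 for Epas1, -0.98 for P4ha1 and 2.30 for Ndrg1. Between the 10-week and the 5-week chimera they were 0.90 for Hk1, -0.95 for Pfkp, 0.74 for Gapdh, 0.87 for Eno1, 0.77 for Pkm, -0.83 for Ldha and 1.85 for Vegfa. Facility, cohort and age were not separated further in the labels.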

How the results depend on the processing

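Of 175 member calls, 99 held in every alternative and left-out library; DESeq2 kept 165, its size factors 171 and no count filter 169. Counts of called members moved as follows. With the replicate block, they were 7 in facility 1 females (main 14), 9 in facility 2 females (14), 3 in LyzM-Cre (1), 11 in CD11c-Cre (5), 4 in Csf2rb -/- (9), 1 between facilities (3), 2 between sexes (6) and 4 between the 10-week and 5-week chimeras (7). In the 10-week chimera and in Lip CD11b high against low the block changed no call but Hif1a. With the numbers crossed, LyzM-Cre had 3. With only the compared groups in the fit, facility 1 had 9 and CD11b high against low knockouts 0. Without the count filter, heterozygotes had 2, LyzM-Cre 3, unsplit Lip 2 and CD11b high against low 2. DESeq2 gave 3, 3 and 2 in heterozygotes, unsplit Lip and CD11b high against low. Peaks with −log10 q of at least 20 lay near 15 of 30 members (50%), against 30.9% of the genes tested in the first adult set. At the authors' threshold they lay near 23 (76.7%), against 63.4%. P4ha1 turned to 0.21 with other adult wild types. The cause of these shifts was not tested. Leaving out 1 library gave these ranges: CD11b low 3 to 5, CD11b high 7 to 9, facility 1 5 to 11, heterozygotes 0 to 2, facility 2 9 to 14, males 3 to 4, LyzM-Cre 1 to 13, CD11c-Cre 3 to 11, Lip low 7 to 11, Lip high 10 to 12, chromatin-matched knockout 9 to 15 and Lip 1 to 2, E18 4 to 7, Csf2rb 5 to 11, Ly6Chi 1 to 3, chimeras 7 to 11 at 5 weeks and 10 to 18 at 10 weeks, adult against E18 17 to 22, CD11b high against low knockouts 0 to 2 and Lip 6 to 11, between facilities 1 to 6, between sexes 2 to 8, between chimera ages 4 to 12. Groups of 2 left 1 library, assumed to vary like the others. Depth limits low members such as Egln3 and Pgam1.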
